A study of Homo sapiens with 6 samples.

Results

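The 38 genes described here are the listed genes of the HOXA, HOXB, HOXC and HOXD clusters, found by the gene name that the array's design gives to each feature. They were 38 of the 23593 genes on the array, represented by 58 of its 45033 features. Where several features measure a gene, its value is that of the feature whose log2 intensity averaged highest. The study measured total RNA of HCC-LM3, an established human hepatocellular carcinoma line, on 6 arrays in 1 colour (Cy3). The control group, shNon, was infected with a lentivirus carrying a control shRNA, and the knockdown group, shASPP2, with one carrying an shRNA against ASPP2, the p53-binding protein encoded by TP53BP2. Both groups were infected and harvested 1 week later, and each held 3 samples from separate cultures. All samples come from a single line, and the labels name 1 shRNA vector per group.

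HOX genes encode homeodomain transcription factors that give cells along the body axis their positional identity. In each cluster the genes stand in the order in which they are used, from anterior at the 3′ end (low paralog numbers) to posterior at the 5′ end (high paralog numbers), and adjacent genes are often active together. HOX proteins bind DNA with TALE cofactors of the PBX, MEIS and PKNOX families, and the clusters are held silent by Polycomb complexes and kept active by MLL complexes. Retinoic acid is a classical inducer of the 3′ genes.

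As background, the array has a row summarised from probes of random sequence. Its intensity was between 30.4 and 33.3 on the 6 arrays, 32.6 on average in shNon and 30.6 in shASPP2. A gene counted as detected where it lay over 2 times that row, a threshold between 60.9 and 66.5, on every array. Intensities of different features depend on their probes, so genes are set against this threshold and against themselves, and are not ranked against each other.

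Detected HOX genes were grouped by cluster. Of the 38 genes, 14 lay over the threshold on all 6 arrays (36.8%, beside 51.1% of all genes), 12 lay under it on all 6 and 12 were over it on some arrays. In the HOXA cluster, on chromosome 7 between 27106497 and 27206221 (hg18), 8 of 10 genes were detected. They were the anterior and middle genes HOXA2, HOXA3, HOXA4, HOXA5 and HOXA6 and the posterior genes HOXA10, HOXA11 and HOXA13. In the HOXC cluster (chromosome 12, 52618842 to 52735630) it was 4 of 9, namely HOXC4, HOXC6, HOXC9 and HOXC11. In the HOXB cluster (chromosome 17, 43961812 to 44161040) only HOXB5 and HOXB7 of 10 were detected. In the HOXD cluster (chromosome 2, 176665777 to 176763881) none of 9 was, and no HOXD intensity exceeded 74.4 on any array. By position, 4 of 11 genes of paralog groups 1 to 4, 5 of 11 of groups 5 to 8 and 5 of 16 of groups 9 to 13 were detected. Differences between these shares were not tested.

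**Figure D1:**
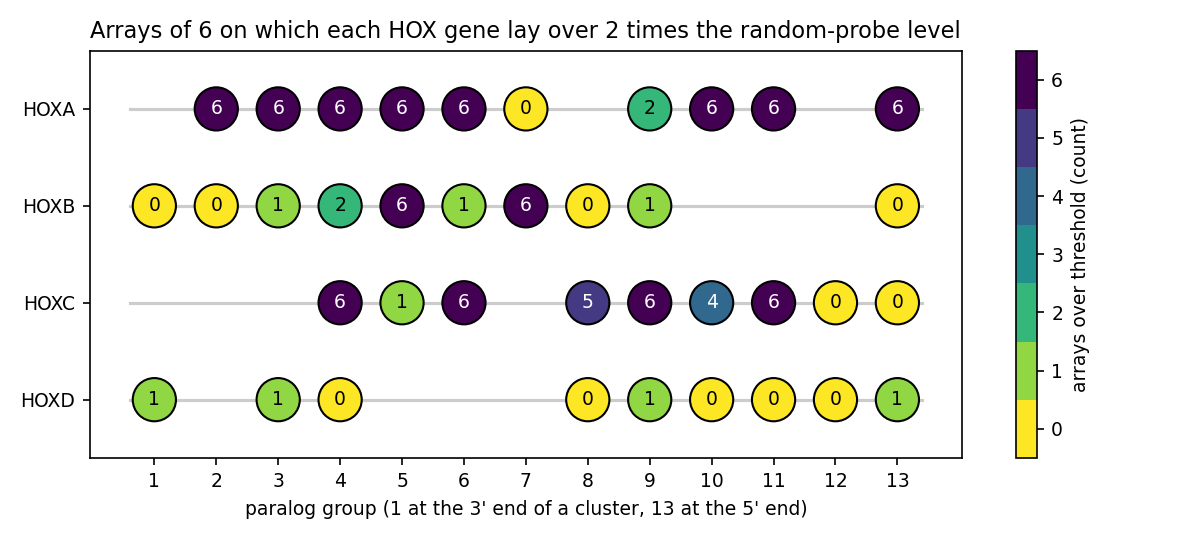
Number of the 6 arrays on which each HOX gene lay over 2 times the random-probe row, with clusters as rows and paralog groups on the horizontal axis. HOXA genes were over on all 6 arrays except HOXA7 (0 arrays) and HOXA9 (2 arrays), while no HOXD gene was over on more than 1 array.

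Closest to the threshold on the detected side were HOXC4, whose lowest array stood at 64.1, and HOXC6, whose lowest array stood at 64.7. The genes that missed detection by the fewest arrays were HOXC8, over on 5 arrays and at 42.6 on the remaining one, shNon array 1, and HOXC10, over on 4 arrays. HOXC8 was over on all 3 shASPP2 arrays, so 15 HOX genes were over throughout shASPP2 and 14 throughout shNon. That difference holds for the HOXC8 feature used. The other HOXC8 feature was over on 4 arrays and stood at 47.0, under the threshold, on shASPP2 array 1. HOXC10 was spread widely within both groups, from 51.2 to 179 in shNon and from 56.9 to 154 in shASPP2. A gene under the threshold was not detectable here, which does not show that it was silent.

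HOXA7 and HOXA9 form a gap inside the detected HOXA run. HOXA7 (27160814 to 27162821) had intensities of 29.1, 49.9 and 38.8 in shNon and of 48.9, 49.3 and 55.7 in shASPP2, all under the threshold. HOXA9 (27168581 to 27171674), a posterior gene known from leukaemia, had 98.8, 41.9 and 104 in shNon and 45.5, 40.8 and 51.1 in shASPP2. It was thus over the threshold on 2 shNon arrays and on no shASPP2 array, and the groups overlapped. Each of these genes has a single feature on the array, so a poorly binding set of probes cannot be told apart from absent RNA.

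The RefSeq start windows on both sides of the edge of that gap are shown because HOXA6 was detected on all arrays and the next genes, HOXA7 and HOXA9, were not. RefSeq windows of 300 bases on GRCh38.p14, 250 before and 50 after an annotated start, were found for 20 of the 38 genes, as 26 windows. The 250 bases before the start are printed 5′ to 3′ on the minus strand, at chr7:27147775-27148024 for HOXA6, chr7:27156676-27156925 for HOXA7 and chr7:27165538-27165787 for HOXA9. Capitals mark matches, on either strand, to CCAAT, to TATAAA and to the CDX-type motif TTTATNG, the last 2 of which overlap in HOXA9.
HOXA6: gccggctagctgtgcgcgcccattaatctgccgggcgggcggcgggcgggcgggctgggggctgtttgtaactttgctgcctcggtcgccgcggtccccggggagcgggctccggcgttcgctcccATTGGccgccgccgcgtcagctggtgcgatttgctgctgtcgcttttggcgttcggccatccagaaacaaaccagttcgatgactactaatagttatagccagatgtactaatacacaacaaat
HOXA7: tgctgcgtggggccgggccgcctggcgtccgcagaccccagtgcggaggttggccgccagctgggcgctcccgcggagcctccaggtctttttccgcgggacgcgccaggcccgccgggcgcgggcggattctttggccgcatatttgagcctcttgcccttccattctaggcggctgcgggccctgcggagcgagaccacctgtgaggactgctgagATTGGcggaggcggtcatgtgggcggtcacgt
HOXA9: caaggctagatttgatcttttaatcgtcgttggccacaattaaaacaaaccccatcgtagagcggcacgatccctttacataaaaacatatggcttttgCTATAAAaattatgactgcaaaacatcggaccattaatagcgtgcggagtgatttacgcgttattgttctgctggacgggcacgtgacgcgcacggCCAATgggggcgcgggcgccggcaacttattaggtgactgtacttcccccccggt
CCAAT was found in all 3 windows, and in 17 of the 26 HOX windows beside 34.6% of all 34943 windows. TATAAA was found in 5 HOX windows (11.6% of all windows) and TTTATNG in 6 (9.75%). The pair site TGATNNAT, bound by HOX and PBX proteins, was found in 3 HOX windows, those of HOXA2, HOXB1 and HOXD11 (7.42%), and AGGTCA, a single arm of the site of retinoic acid receptors, in none (13.8%). The ratio of observed to expected CpG had a median of 0.855 over the HOX windows and of 0.577 over all windows. It was 1.06 for HOXA6, 0.906 for HOXA7 and 1.27 for HOXA9, so detected and undetected neighbours were alike in being rich in CpG. Such matches describe letters in these windows only.

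The comparison of shASPP2 with shNon asks how the HOX genes responded to the knockdown. The target TP53BP2 went from 424 ± 81.9 to 197 ± 43.5 (SD, n = 3), with a log2 fold change of -1.11 (SE 0.249) and no overlap between the groups. Its adjusted p in limma was 0.204. It was 0.0256 when limma's variance was modelled with trend and robust options, and 0.0582 without features below the median level. The other TP53BP2 feature went from 306 to 117 on average (-1.41, SE 0.209). Of the 38 HOX genes none passed an adjusted p of 0.05 over all genes in limma, where 24 genes or 0.102% of all did (0.0593% lower and 0.0424% higher). At an unadjusted p under 0.05 there were 8 HOX genes (21.1%, beside 11.5% of all genes). When limma's variance was modelled with trend and robust options, HOXA3 (adjusted p = 6.23e-04) and HOXC4 (adjusted p = 0.0309) passed, where 2.14% of all genes did (1.15% lower and 0.996% higher). Both also passed when features below the median level were left out, with limma adjusted p-values of 0.0185 and 0.0318 (beside 2.07% of the genes then tested, 1.25% lower and 0.819% higher).

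The detected HOX genes lay mostly lower in shASPP2. Of the 14, 12 had a negative log2 fold change, with a median of -0.48, while 46.4% of all detected genes were negative and their median was 0.03. In 8 of the 14 every shASPP2 array lay below every shNon array (57.1%, beside 12.7% of all detected genes), and in none was it the reverse (12.5%, and 25.3% in either direction). Being detected on all 6 arrays requires signal in both groups, and over all 38 genes 23 were negative and 15 positive, with a median of -0.12 (0.01 over all genes). The 8 were HOXA3, HOXA4, HOXA5, HOXA6, HOXA13, HOXB5, HOXC4 and HOXC9. The random-probe row itself differed by -0.09 log2 between the groups. In RNA from a whole culture, fewer cells with a transcript and less of it per cell cannot be told apart.

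**Figure D2:**
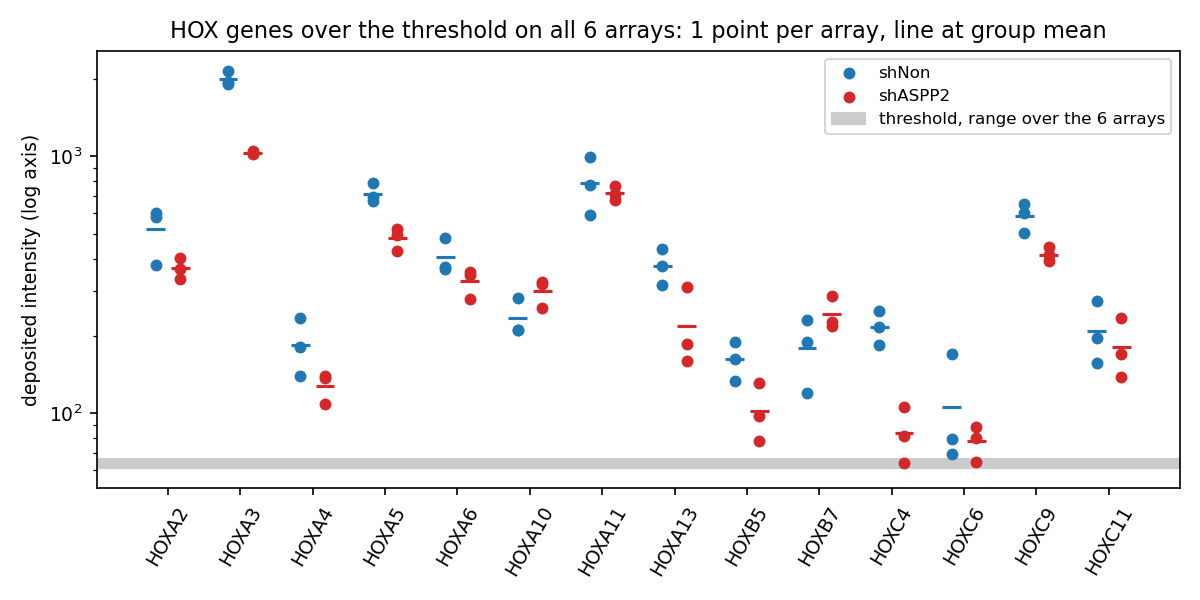
Deposited intensity (log axis) of the 14 HOX genes detected on all 6 arrays, with 1 point per array, a line at each group mean and a grey band for the threshold (60.9 to 66.5). HOXA3 and HOXC4 show the clearest separation, and HOXC4 and HOXC6 reach down to the band.

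HOXA3, which patterns the pharyngeal organs, was the most tightly measured. Its intensities were 1914, 1949 and 2160 in shNon and 1024, 1028 and 1049 in shASPP2. The 3 knockdown cultures were nearly equal to each other and all stood at about the same distance below the controls. The group means were 2007 ± 133 and 1033 ± 13.3 (SD, n = 3), a log2 fold change of -0.96 (SE 0.158, 95% interval -1.33 to -0.58), or 51.6% of shNon. In limma its adjusted p was 0.121, and the exact two-sided permutation test gave 0.1, the smallest value that 3 against 3 arrays allow. The second HOXA3 feature, with 1984, 1727 and 1854 in shNon and 1033, 1052 and 1064 in shASPP2, had -0.82 (SE 0.164), also without overlap. Leaving out single arrays moved the value of the first feature between -0.99 and -0.90.

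HOXC4, an anterior HOXC gene, had the largest difference among the 38. It had intensities of 217, 251 and 184 in shNon and of 81.3, 106 and 64.1 in shASPP2. The groups did not overlap, and the lowest knockdown array stood just above the threshold. The log2 fold change was -1.39 (SE 0.241, 95% interval -1.96 to -0.83, limma adjusted p = 0.126), and it stayed between -1.58 and -1.21 without single arrays. HOXC4 has 1 feature, annotated on hg18 from 52696939 to 52735630, a span that contains HOXC5 (52713098 to 52715412) and HOXC6 (52708460 to 52710865). HOXC5, with intensities from 22.8 to 74.7, was over the threshold on 1 array, so no fall could be measured there. HOXC6 had 79.2, 69.1 and 170 in shNon against 88.7, 80.0 and 64.7 in shASPP2, with overlapping groups on all 3 of its features (95% interval of the log2 fold change -1.18 to 0.50). Whether HOXC4 and HOXC6 differed in their response was not tested.

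HOXC4 and HOXC5 are given the same RefSeq start, so one window stands for both, although HOXC4 was detected on all 6 arrays and HOXC5 on 1. It is shown for that reason, as the 250 bases before the start on the plus strand at chr12:54016638-54016887 (GRCh38.p14), with capitals for CCAAT on the minus strand and for TTTATNG.
HOXC4: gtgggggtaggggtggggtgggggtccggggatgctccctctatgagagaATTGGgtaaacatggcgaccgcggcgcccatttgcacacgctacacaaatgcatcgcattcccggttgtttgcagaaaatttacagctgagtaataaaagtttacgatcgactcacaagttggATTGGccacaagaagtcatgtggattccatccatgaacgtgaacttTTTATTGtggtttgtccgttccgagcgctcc
The window held CCAAT at 2 places and 1 match to TTTATNG, and none to TATAAA, TGATNNAT or AGGTCA. Its ratio of observed to expected CpG was 0.755.

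The other detected anterior and middle HOXA genes had negative log2 fold changes too, each smaller in size than that of HOXA3, and none passed. HOXA5, needed for lung development, had 668, 693 and 785 in shNon and 522, 428 and 495 in shASPP2 (log2 fold change -0.57, SE 0.174, adjusted p = 0.314 in limma). Its second feature had -0.54 but overlapping groups. HOXA6 had 371, 363 and 480 against 279, 354 and 346 (-0.31, SE 0.199), and its second feature -0.59, again without overlap. HOXA4 had 140, 235 and 181 against 137, 139 and 109 (-0.51, SE 0.239). In HOXA4 the groups were separated only by the narrow step from 139 to 140. HOXA2, a hindbrain and branchial arch gene, had 378, 604 and 579 against 334, 365 and 404, where the lowest control array lay inside the knockdown range (-0.47, SE 0.231).

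The detected posterior HOXA genes differed among themselves. HOXA13, which patterns the distal limb, hindgut and genital tract, had 317, 437 and 374 in shNon and 159, 310 and 186 in shASPP2 (log2 fold change -0.83, SE 0.284, limma adjusted p = 0.355). The groups did not overlap, though shASPP2 array 2 came close to the lowest control. HOXA10 had 211, 282 and 210 against 258, 323 and 319 on the feature used (0.36, SE 0.202) and -0.28 (SE 0.248) on the other, so its features pointed in opposite directions. HOXA11 had 996, 776 and 594 against 676, 766 and 713, with the knockdown arrays inside the control range (-0.10, 95% interval -0.64 to 0.43). HOXA10 and HOXA11 both act in the uterus and the limb. Whether posterior and anterior genes differed in their response was not tested.

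**Figure D3:**
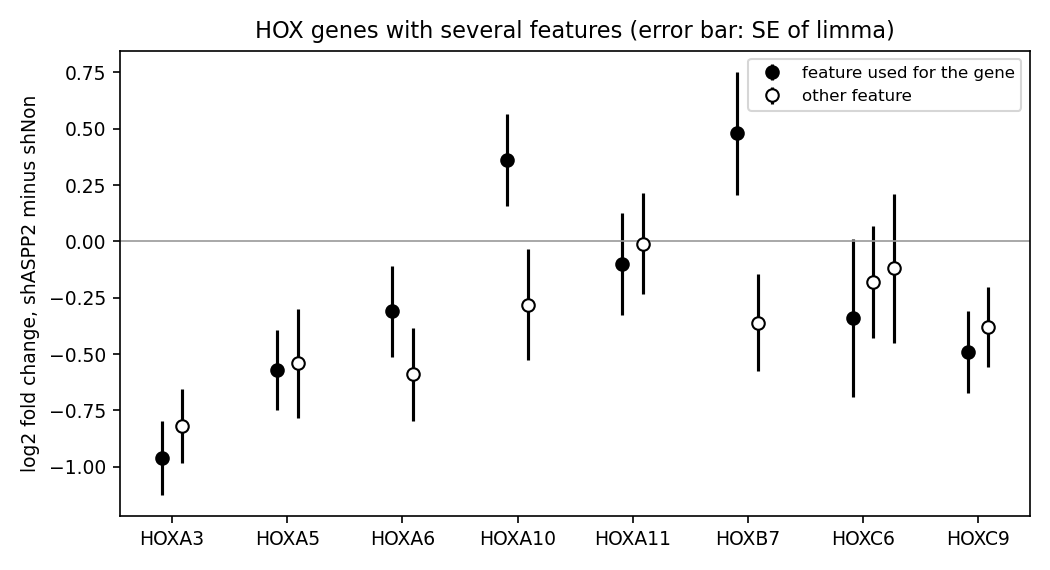
Log2 fold change (shASPP2 minus shNon) with SE from limma over all features, for the 8 detected HOX genes with several features. Filled points are the features used for the gene. In 6 of the 8 genes all features had the same sign, and in HOXA10 and HOXB7 they did not.

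Among the detected HOXB and HOXC genes, HOXB5, HOXC9 and HOXC11 were measured besides HOXC4 and HOXC6. HOXC9, a thoracic segment gene, had 654, 505 and 603 in shNon and 391, 412 and 443 in shASPP2 (log2 fold change -0.49, SE 0.178, limma adjusted p = 0.372). Its second feature had -0.38, also with no overlap. HOXB5 had 163, 134 and 189 against 97.5, 131 and 77.8, with a step of only 131 to 134 between the groups (-0.69, SE 0.248, limma adjusted p = 0.371). HOXC11 had overlapping groups, with 197, 157 and 273 against 170, 234 and 138 (-0.21, 95% interval -0.88 to 0.46). HOXB7 had 230, 190 and 120 against 219, 285 and 226 (0.48, SE 0.273), but its other feature had -0.36, so its direction is not settled. In 19 of the 38 genes a single feature gives the value, and there this check is not possible.

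The 24 genes that were not detected on all arrays had no common direction, with 11 negative and 13 positive log2 fold changes and a median of 0.11. Without overlap, HOXB13 was lower and HOXB4, HOXB8 and HOXD8 were higher in shASPP2. HOXB13, HOXB8 and HOXD8 were under the threshold on all 6 arrays, with highest intensities of 61.6, 50.2 and 48.8, so no size can be given for them. The second feature of HOXD8 had the opposite sign (-0.25) and that of HOXB13 had -0.06, both with overlapping groups, while HOXB4 and HOXB8 have 1 feature each. HOXB4, used to expand blood stem cells, had 48.7, 50.2 and 31.9 in shNon and 65.7, 83.7 and 55.9 in shASPP2, and was over the threshold only on 2 shASPP2 arrays (log2 fold change 0.66, SE 0.254, adjusted p = 0.397 in limma). Of all 38 genes, 12 had groups that did not overlap (31.6%, beside 18.8% of all genes), 9 of them lower (23.7%, beside 9.52%) and 3 higher (9.3% of all genes). Of the 9 HOXD genes only HOXD8 was among them.

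**Figure D4:**
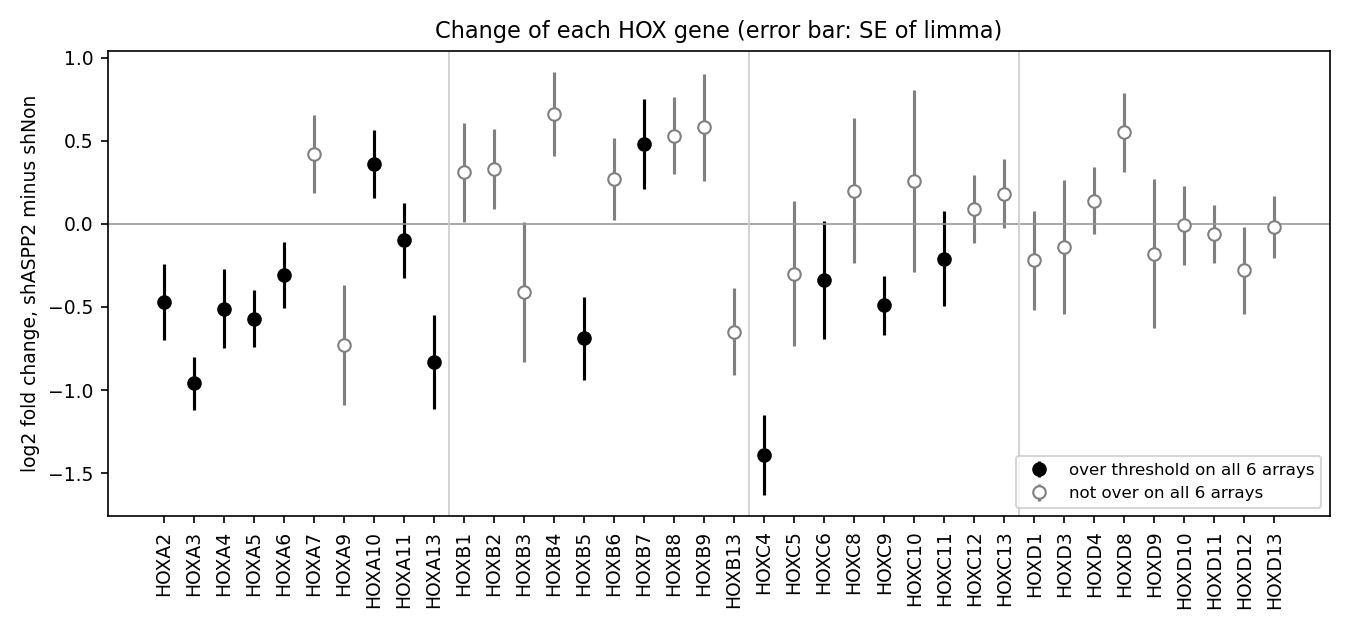
Log2 fold change (shASPP2 minus shNon) of each of the 38 HOX genes with its SE from limma, in the order of the clusters. Filled points are the 14 genes detected on all 6 arrays, of which 12 lie below 0, and open points are the other 24, which scatter on both sides of 0.

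Genes flanking the clusters, and PRAC1 inside the HOXB span, were set beside them. Of 9 such genes none passed over all genes in limma, 4 were lower and 1 higher without overlap (9.52% and 9.3% of all genes), and the median log2 fold change was -0.30 (0.01 over all genes). SKAP2, an adaptor protein gene on the 3′ side of the HOXA cluster (26674823 to 26870731), had 5457, 5050 and 6935 in shNon and 3119, 3489 and 2966 in shASPP2. The shASPP2 arrays all lay well below the controls (-0.86, SE 0.192, limma adjusted p = 0.204, 0.0013 with trend and robust options and 0.0497 without features below the median), and the second SKAP2 feature had -0.76. HIBADH, a valine breakdown enzyme gene on the 5′ side (27531585 to 27669127), was chosen after its values were seen. It had 8943, 8975 and 8874 against 6073, 6265 and 6294 (-0.52, SE 0.153, limma adjusted p = 0.296, and 0.013 with trend and robust options), and -0.22 on its other feature. EVX1, which lies between HOXA13 and HIBADH, was over the threshold on 1 array. CALCOCO1, a coactivator gene beyond the HOXC cluster on chromosome 12, was at 796 ± 35.7 in shNon and 494 ± 28.3 in shASPP2 (SD, n = 3), a log2 fold change of -0.69 (SE 0.159, limma adjusted p = 0.217, 0.0447 with trend and robust options and 0.0441 without features below the median). Its other feature had -0.90 (SE 0.261). SMUG1, on the other side of the HOXC cluster, was also chosen after its values were seen. It was detected at 671 ± 17.7 in shNon and 649 ± 68.3 in shASPP2, with overlapping groups (-0.05, SE 0.168). Beside the HOXD cluster, LNPK had 0.56 (SE 0.189, limma adjusted p = 0.352) and MTX2 -0.34 (SE 0.181, limma adjusted p = 0.525), both chosen after their values were seen. The other features of LNPK had 0.93, 0.49 and 0.15, and that of MTX2 had -0.04. The HOXB neighbours SKAP1 and TTLL6, and PRAC1, which lies between HOXB9 and HOXB13, were under the threshold on all 6 arrays.

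**Figure D5:**
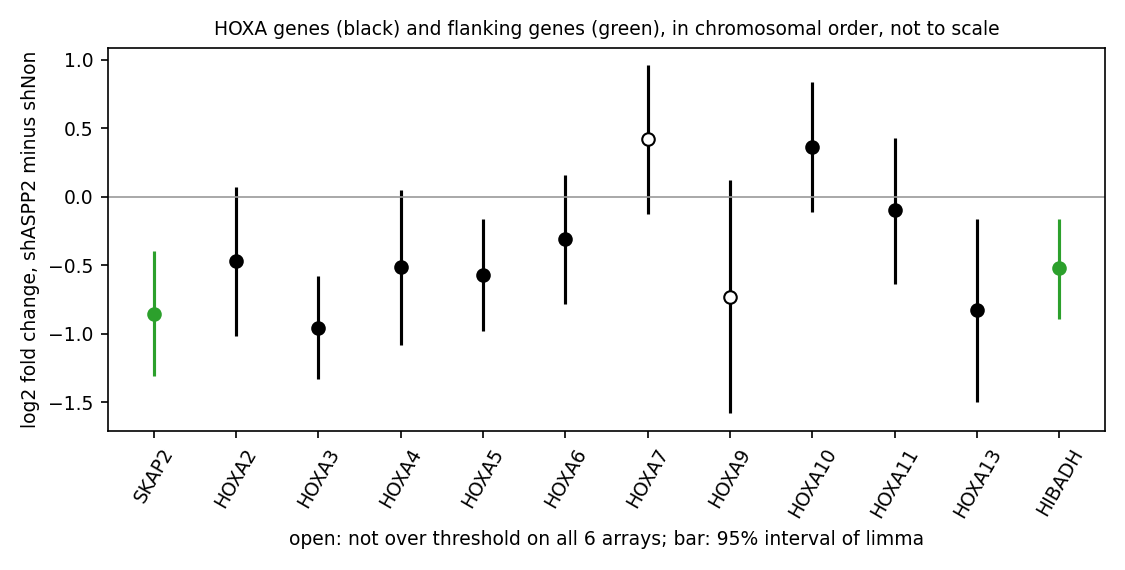
Log2 fold change (shASPP2 minus shNon) with its 95% interval from limma for the 10 HOXA genes and for SKAP2 and HIBADH, which lie on either side, in chromosomal order and not to scale. Genes between them that are not among the 38, such as EVX1, are left out. The intervals of SKAP2, HOXA3, HOXA5, HOXA13 and HIBADH lie below 0.

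The partners and regulators of HOX genes were counted by list. Of 11 TALE genes 8 were detected, among them PBX2, PBX3, MEIS1, MEIS2 and PKNOX1, and none passed over all genes in limma, with a median log2 fold change of 0.03. TGIF2, a repressor of that family, was at 309 ± 42.6 and 206 ± 61.3 (SD, n = 3; -0.63, SE 0.268), and had -0.63 on its second feature too. MEIS3 was at 140 ± 28.3 and 101 ± 18.1, with overlapping groups. PBX4 and PKNOX2 were under the threshold on all 6 arrays.

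All 23 Polycomb genes were detected and none passed, with a median of 0.06 log2. Without overlap, 4 were higher and 1 was lower in shASPP2 (12.5% and 12.7% of all detected genes). EZH1, the less active of the H3K27 methyltransferases, was at 312 ± 86.3 and 183 ± 46.2 (SD, n = 3; -0.76, SE 0.278), and PHF19, an accessory subunit, at 613 ± 35.6 and 823 ± 133 (0.41, SE 0.185). Of 17 MLL complex and H3K27 demethylase genes 15 were detected and none passed (median 0.19). PSIP1, which tethers MLL to chromatin, had -0.54 (SE 0.24) and MLLT1, an elongation partner, 0.58 (SE 0.254). Of 8 CTCF and cohesin genes none passed (median 0.01), with WAPL at 0.51 and STAG2 at -0.27.

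Of 17 genes of retinoic acid supply and receptors, 1 fell and passed over all genes in limma and 16 did not pass, where 0.102% of all genes passed, and 0.0593% passed as lower (median log2 fold change 0.06). It was CYP26B1, which breaks down retinoic acid, with 3491, 5190 and 2994 in shNon and 338, 485 and 456 in shASPP2 (log2 fold change -3.17, SE 0.264, limma adjusted p = 0.0219). In limma it did not pass without shNon array 1 or 2 or without any single shASPP2 array (adjusted p from 0.0735 to 0.186). The other CYP26B1 feature, over the threshold on 3 arrays, had -1.93 (SE 0.357). STRA6, the retinol uptake receptor, was at 1725 ± 116 and 985 ± 76.1 (SD, n = 3; -0.81, SE 0.165, limma adjusted p = 0.184, 0.00423 with trend and robust options and 0.0369 without features below the median). Its other feature, at 107 and 121, had 0.22. RDH10, chosen after its values were seen, was at 1824 ± 203 and 1158 ± 148 (-0.66, SE 0.186, limma adjusted p = 0.282, and 0.0246 with trend and robust options). In this list 5 genes, among them CYP26B1, STRA6 and RDH10, were lower without overlap and 0 were higher (9.52% and 9.3% of all genes). Over the whole list 8 log2 fold changes were negative and 9 positive. Of the ParaHox and EVX genes CDX2, an intestinal regulator of HOX clusters, was detected among 8, at 407 ± 154 and 374 ± 57.4, and none passed (median -0.01). Of 16 non-coding genes of the clusters 1 was matched on the array, HOXB-AS3, at 88.1 ± 19.3 and 114 ± 28.4 (0.36, SE 0.267). Of 6 liver homeobox genes none passed in limma, and HHEX, needed for the liver bud, had -0.44 (SE 0.165).

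The labelled cell type was checked by marker genes. Of 11 hepatocyte markers 5 were detected, namely TF, AMBP, KRT8, KRT18 and ALB, and ALB was low, at 86.5 in shNon and 68.4 in shASPP2. AFP, APOA1, APOB, TTR and SERPINA1 were over the threshold on 1 or 2 arrays each and APOA2 on none. Detected markers of other cell types were COL1A1 and LUM of 9 fibroblast and stellate genes, PECAM1 of 7 endothelial genes and CD68 of 7 leukocyte genes. The summed intensity of the endothelial markers was 2136 to 2212 in shNon and 1086 to 1280 in shASPP2, which PECAM1 made up for the most part (1866 and 968), while VWF, KDR, TEK and CLDN5 were under the threshold on all 6 arrays. For fibroblasts the sum was 610 to 850 in shNon and 648 to 811 in shASPP2, and for leukocytes 2815 to 3730 and 3799 to 4305, with CD3E and CD14 under the threshold throughout. For hepatocyte markers it was 16781 to 18056 and 21466 to 25323 (KRT8 alone had 8766 and 14332 on average, and KRT18 6237 and 7429). TF was at 1192 and 908. None of these marker genes passed over all genes in limma. With the trend and robust options, under which HOXA3 and HOXC4 passed, PECAM1 (lower, adjusted p = 0.00125) and KRT8 (higher, adjusted p = 0.00207) passed in limma as well, and PECAM1 also did without features below the median (adjusted p = 0.0318). Their part in the HOX values was not tested.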

How the data were processed

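Total RNA of 6 HCC-LM3 cultures was hybridised to 1-colour NimbleGen arrays. The authors deposited 1 linear intensity per feature and sample. The submitters' processing notes name RMA, a method that usually includes background correction, quantile normalisation and a summary over probes and can compress differences of dim features. Its version and settings are not given in the sources used. Per the file headers, 45031 of 45033 features come from 3 probes, with positions on hg18, and the random row from 2508 probes. The series' value table differed from these files in 0 cells.

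Symbols were updated through a RefSeq gene table of GRCh38.p14, used for names. Log2 intensity was fitted with limma 3.58.1 in R 4.3.3 (lmFit, eBayes) with group as the only term, 1 feature per gene, two-sided, with Benjamini-Hochberg adjustment over 23593 genes. Fold changes are shASPP2 minus shNon. With 3 arrays per group their number limits the precision. The fit was tested on simulated data. Start windows and their motifs come from RefSeq (GRCh38.p14).

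The 38 genes, the 13 gene lists and the tests were chosen with earlier results of these data known. Values by array are given for HOX genes over the threshold on all arrays and for HOXA7, HOXA9 and HOXB4. Of the other genes without overlap, HOXB13, HOXB8 and HOXD8, only the highest intensity is given. For HOXC8 and HOXC10, next to the threshold, single values or ranges are given. From each list the genes past an adjusted p of 0.05 and the 2 detected genes with the smallest p are named, and others are said to be chosen after their values were seen or are named for detection only. Alternatives were another threshold, feature choice, normalisation, filter, variance model, array weights, an added 16 before log2, the replicate block and leaving out each array. Some genes of the lists are not reported here.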

Additional observations from a re-analysis of the deposited data

How the results depend on the processing

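Of 298 values of 18 HOX genes under the 17 alternatives of the fit, 291 kept their direction and their side of the threshold and 4 newly passed, HOXA3 and HOXC4 under the 2 settings given above. Another 3 changed sign, all without single arrays. There HOXA11 ranged from -0.29 to 0.08 (positive without shNon array 1), HOXC6 from -0.59 to 0.06 and HOXC11 from -0.41 to 0.00 (both highest without shNon array 3). The filters, the variance model, the replicate block and the fit over all features used the same log2 values, so no direction could change there. With the series' value table, equal in every cell, nothing could change. The mean over features left the fold change of genes with a single feature as it was. The 291 are therefore not independent checks. The count of 14 detected HOX genes was 15 at 1.5 times the random row, 11 at 3 times, 14 to 15 without single arrays and 14 with other feature choices. The count of 12 with groups that do not overlap, whose alternatives were chosen after seeing the data, was 13 with median centring, 10 with the mean over features and 12 to 18 without single arrays, where separation is easier by construction. The count of HOX genes that passed in limma was 2 in place of 0 with trend and robust options and without features below the median, and 0 without any single array. For the listed genes the count of 1 was 8 with trend and robust options (CYP26B1, RDH10, STRA6, SKAP2, HIBADH, CALCOCO1, KRT8 and PECAM1), 5 without features below the median (CYP26B1, STRA6, SKAP2, CALCOCO1 and PECAM1), 0 with the replicate block and between 0 and 1 without single arrays, where fewer arrays by construction make calls harder. CYP26B1 stayed past the threshold only without shNon array 3 among these, and its log2 fold change stayed at -2.94 or lower there.

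The replicate block called 0 HOX genes. Same-numbered arrays had deviations correlated at 0.076, -0.0975 and -0.136, and differently numbered ones at -0.11 to 0.176. With 3 arrays per group these values cannot tell whether same-numbered samples were prepared together, and the labels name no pairing. Centring each array on its median moved the median of all genes by -0.034 log2. Undetected genes are limited by signal over the random row.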
